A study of Mus musculus with 15 samples.

Results

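Il1rl1, Il33, Il1rap, Il1r1 and Il18 encode 2 cytokines and 3 receptor chains of the interleukin-1 family, and they were followed here in stretched mouse podocytes. These 5 genes, of 55416 in the count table, were chosen by name with the stretch differences of these counts already known, Il1rl1 being among those higher under stretch, so their differences under stretch are given as values without a test. Podocytes are the epithelial cells of the kidney filter, which wrap the glomerular capillaries. All samples were the conditionally immortalised mouse line SVI, differentiated and grown on flexible silicone membranes, so every group came from 1 cell line in culture. RNA-seq of 15 samples covered 2 experiments. Experiment 1 held 6 low-stretch samples, with a membrane deflection of 5 to 6 mm in the sample labels, and 3 unstretched samples. Experiment 2 held 3 high-stretch samples, with a deflection of 7 to 8 mm, and 3 unstretched samples. Each amplitude was used in only 1 experiment, and its samples were set against the unstretched ones of that experiment. No genotype, drug or other treatment is given in the labels for any group.

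IL-33 is a nuclear cytokine that damaged epithelial and stromal cells release, and it acts as an alarm signal. Its receptor is ST2, the product of Il1rl1, which pairs with the accessory protein encoded by Il1rap and signals through the adaptor MyD88 to NF-kB. A soluble form of ST2 lacks the transmembrane and signalling parts, binds IL-33 outside the cell and acts as a decoy. Il1rap serves the IL-1 receptor Il1r1 in the same way, and Il18 encodes a further cytokine of the family, which is matured by caspase-1.

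The soluble and membrane forms of ST2 part at 1 exon boundary, and the sequences on either side of it are shown because the transcript values below are given by form. In the GENCODE M21 annotation (GRCm38, plus strand of chromosome 1), both reading frames shared 985 coding bases, or 328 whole codons. The last 30 shared bases, chr1:40446646-40446675, are in lower case. The capitals mark what follows: in the soluble form 29 bases that run on into the intron at chr1:40446676-40446704 and end at the stop codon, and in the membrane form the first 30 bases of the next exon at chr1:40450075-40450104.
Soluble ST2 (Il1rl1-203): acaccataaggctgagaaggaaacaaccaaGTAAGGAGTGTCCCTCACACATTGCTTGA
Membrane ST2 (Il1rl1-202): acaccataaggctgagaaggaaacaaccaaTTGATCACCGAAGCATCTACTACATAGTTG
The soluble frame carried 9 codons after the shared ones and the membrane frame 239, giving frames of 337 and 567 codons.

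Il1rl1 is known for a distal and a proximal start, and the 250 bases before each are shown because transcripts of both were measured. A short transcript, Il1rl1-204, starts between them at position 40436589 of the GENCODE annotation and belongs to neither. The sequences are from RefSeq (GRCm38.p6, plus strand), at chr1:40429320-40429569 for the distal and chr1:40439379-40439628 for the proximal start. Capitals mark GATA motifs (AGATAA as well as AGATAG, and TGATAA as well as TGATAG, on either strand) and the TEAD motif GGAATG.
Distal start: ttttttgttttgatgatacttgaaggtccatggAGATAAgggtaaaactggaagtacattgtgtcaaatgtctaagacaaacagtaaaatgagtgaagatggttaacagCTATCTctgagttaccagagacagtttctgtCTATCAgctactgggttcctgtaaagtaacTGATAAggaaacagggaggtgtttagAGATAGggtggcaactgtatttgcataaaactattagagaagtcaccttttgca
Proximal start: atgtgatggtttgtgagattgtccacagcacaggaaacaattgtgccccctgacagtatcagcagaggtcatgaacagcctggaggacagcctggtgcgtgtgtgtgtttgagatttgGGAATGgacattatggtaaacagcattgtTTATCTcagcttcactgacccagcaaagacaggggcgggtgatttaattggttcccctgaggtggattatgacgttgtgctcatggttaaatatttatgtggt
The distal window held 5 GATA matches and the proximal window held 1. Of 32851 mouse promoter windows of this length, 26.5% held at least 1 GATA match and 0.0426% held 5 or more. The TEAD motif occurred 1 time in the proximal window and is found in 12.6% of all windows. Neither window held the AP-1 motif TGANTCA, found in 6.75% of windows, or TATAAA, found in 12.4%. A match says only that these letters occur there.

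Samples held between 172.2 and 396.7 M (megacounts) over all genes. Mitochondrial genes took 3.55% to 5.21% of the counts in experiment 1 and 1.14% to 2.6% in experiment 2. The first principal component separated the experiments, and unstretched replicate 3 of experiment 2 stood apart from its group (score 32.48, against 121.4 and 162.6), so several results below are also given without it. Of 9 podocyte markers, Synpo, Podxl, Cd2ap and Actn4 had means above 1 CPM (counts-per-million, scaled by TMM) in all 4 groups. Nphs1, which encodes the slit diaphragm protein nephrin, was low, with group means from 0.292 to 0.683 CPM. Wt1, a podocyte transcription factor, fell under high stretch from 2.81 ± 1.75 to 0.545 ± 0.0953 CPM (SD, n = 3 each; log2 fold change -2.36, SE 0.45, edgeR adjusted p = 0.0311). Its log2 fold change under low stretch was -1.16 (SE 0.33, edgeR adjusted p = 0.0688).

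Il1rl1, the ST2 gene, was higher in every stretched sample than in any unstretched sample of the same experiment. In experiment 1 the unstretched samples held 15.9, 22.8 and 8.21 CPM of Il1rl1, replicates 1 to 3. The 6 low-stretch samples ranged from 67.3 to 98.7 CPM with a median of 70.1 CPM. Low-stretch replicates 3 and 4 were the highest at 97.6 and 98.7 CPM, and the other low-stretch samples lay between 67.3 and 70.3 CPM. The means were 78.7 ± 15.1 CPM (SD, n = 6) against 15.6 ± 7.30 CPM (SD, n = 3), a fold of 5.03, and the fitted log2 difference was 2.32 with a standard error of 0.30. In experiment 2 the unstretched samples held 6.33, 12.6 and 11.4 CPM and the high-stretch samples 71.7, 50.8 and 68.4 CPM. Again the groups did not overlap, and the lowest high-stretch sample was replicate 2. The means were 63.6 ± 11.2 and 10.1 ± 3.35 CPM (SD, n = 3 each), a fold of 6.28, with a fitted log2 difference of 2.67 (SE 0.31), or 2.81 without unstretched replicate 3.

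Position codes in the sample descriptions follow each other on the plate without a break. They were cut here at each unstretched sample into 6 runs of neighbouring positions, so each run holds 1 unstretched sample by construction. The labels name no such runs and do not say whether the samples of a run were cultured together. Within its run, Il1rl1 was higher in 6 of 6 low-stretch samples, by 4.28-fold to 8.32-fold with a median of 4.39-fold. The low-stretch samples of a run were set against the same unstretched sample, so their folds are not independent. It was higher in 3 of 3 high-stretch samples, by 4.02-fold, 5.98-fold and 11.3-fold. Within experiment 1, the second run held the highest unstretched sample and both of the highest stretched samples, and its folds of 4.28 and 4.33 were the smallest of the 6 low-stretch folds. The third run, with the lowest unstretched sample of experiment 1, had the largest of the 6, at 8.20-fold and 8.32-fold.

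**Figure D1:**
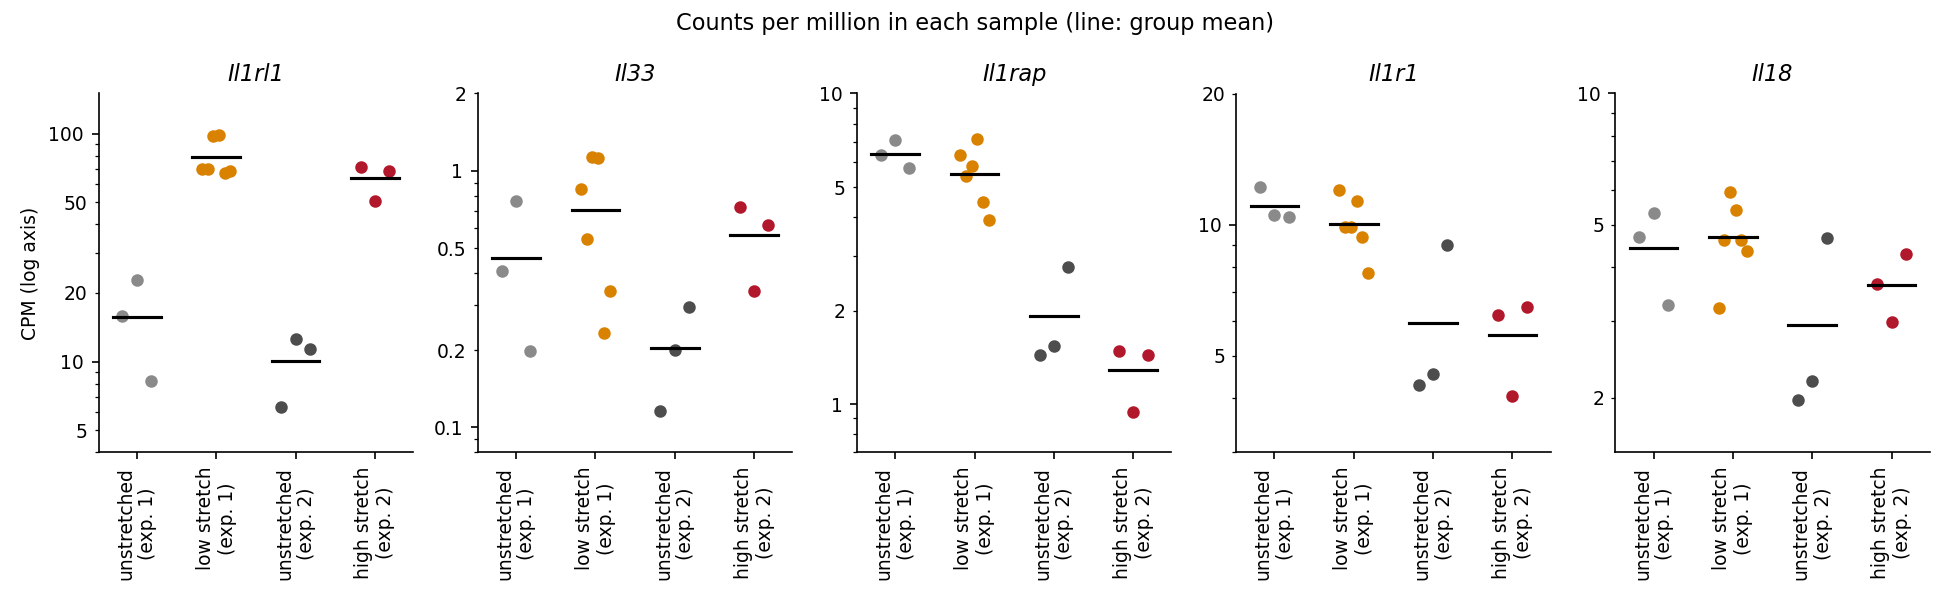
The level, in CPM, of each gene in each of the 15 samples, on log axes that differ between panels; points are samples and lines are group means. Il1rl1 lay between 67.3 and 98.7 CPM under low stretch and between 50.8 and 71.7 CPM under high stretch, above all unstretched samples (6.33 to 22.8 CPM). Il1rap and Il1r1 were lower in experiment 2. The stretched and unstretched samples of Il1rap, Il1r1 and Il18 overlapped in each experiment, and those of Il33 overlapped in experiment 1.

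Among the 5 genes, Il1rl1 alone passed the whole-table edgeR threshold (Benjamini-Hochberg adjusted p under 0.05) in each stretch comparison. Il1rl1 did so in 9 of 9 low-stretch fits and 5 of 6 high-stretch fits that left out 1 sample, the exception being without high-stretch replicate 3. Without that replicate, the number of all genes that passed under high stretch fell from 643 to 14. Il33 passed under high stretch with DESeq2, with no filter on low counts, with a plate run block and without unstretched replicate 3. Under high stretch a replicate block was the same fit as the plate run block, so it is not counted separately. Under low stretch Il33 passed with a plate run block. The share of all genes tested that passed was 5.45% of 21672 under low stretch and 3.47% of 18524 under high stretch. Groups did not overlap for Il1rl1 alone under low stretch (15.3% of all genes tested, 7.81% with the stretched samples higher) and for Il1rl1 and Il33 under high stretch (20.6%, 9.97% with the stretched samples higher). These counts describe how the genes were chosen and support nothing. All 5 genes passed the filter on low counts in every comparison.

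Most Il1rl1 RNA was of the soluble form in all 4 groups, and the soluble share was higher under low stretch. Transcript abundances were deposited as TPM (transcripts-per-million, scaled to transcript length), in which an exact 0 is described as listed at 0. The Il1rl1 total was 9.81 ± 4.85 TPM (SD, n = 3) unstretched and 49.5 ± 7.74 TPM (SD, n = 6) under low stretch in experiment 1. In experiment 2 it was 4.66 ± 1.90 and 29.4 ± 6.50 TPM (SD, n = 3 each). The soluble form was counted from Il1rl1-203, with a proximal start, and Il1rl1-205, with the distal start. The membrane form was Il1rl1-202, since the other membrane transcript, Il1rl1-201, was listed at 0 in all 15 samples.

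In experiment 1 the soluble share of Il1rl1 TPM was 63.2%, 59.7% and 56.2% in the unstretched samples. Under low stretch it ranged from 67.1% to 72.0% with a median of 68.2%. All 6 low-stretch samples were above all 3 unstretched ones, and the means were 68.7% ± 1.92 (SD, n = 6) and 59.7% ± 3.52 (SD, n = 3). The membrane share was 29.6%, 28.5% and 32.6% unstretched, and 17.8% to 21.9% with a median of 20.6% under low stretch. These groups did not overlap either, and the difference of means was -9.95 percentage points.

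In experiment 2 the soluble share was 65.9%, 67.8% and 69.5% in the unstretched samples and 80.0%, 66.9% and 75.3% under high stretch. The groups overlapped, because high-stretch replicate 2 lay within the unstretched range. The membrane share was 22.5%, 18.1% and 22.9% unstretched and 16.3%, 13.9% and 14.0% under high stretch. It did not overlap, and the difference of means was -6.44 percentage points. The remaining share, between 3.73% and 19.3% in any sample, was Il1rl1-204, a short transcript whose reading frame is incomplete in the annotation.

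In absolute terms both forms were more abundant in the stretched samples. Soluble-form TPM was 34.1 ± 5.68 (SD, n = 6) against 5.91 ± 3.00 (SD, n = 3) under low stretch, 5.76-fold, and membrane-form TPM was 9.98 ± 1.23 against 2.90 ± 1.28, 3.44-fold. Under high stretch the soluble form was at 22.1 ± 6.64 against 3.18 ± 1.36 TPM, 6.94-fold, and the membrane form at 4.38 ± 1.30 against 0.984 ± 0.438 TPM, 4.45-fold. The ratio of soluble to membrane TPM averaged 1.98 (1.72 to 2.13) in the unstretched samples of experiment 1 and 3.41 (3.14 to 4.05) under low stretch. It averaged 3.24 (2.93 to 3.74) in the unstretched samples of experiment 2 and 5.04 (4.82 to 5.37) under high stretch. The unstretched samples of experiment 2 thus overlapped in this ratio with the low-stretch samples of experiment 1. The ratio did not overlap between stretched and unstretched samples within either experiment.

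**Figure D2:**
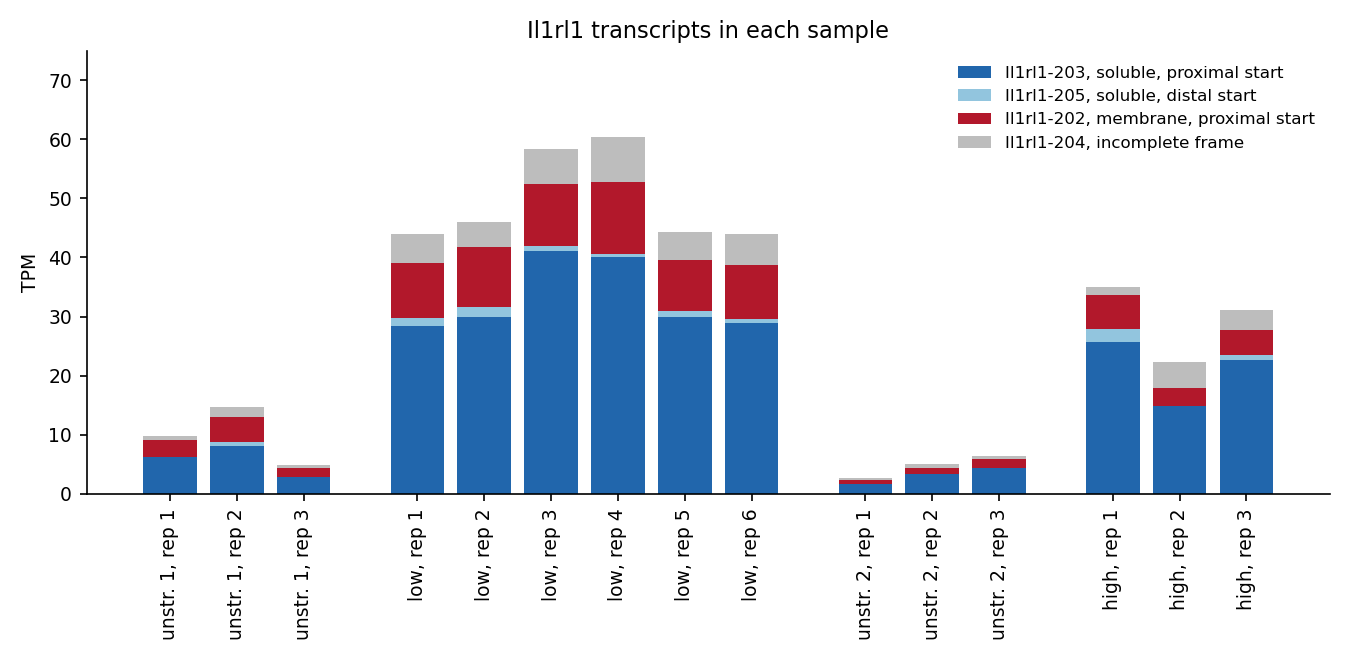
TPM of each Il1rl1 transcript, stacked, in each sample (rep: replicate; unstr. 1 and unstr. 2: unstretched samples of experiments 1 and 2). Il1rl1-203, the soluble form with the proximal start, formed the largest part of every bar, and the whole bars were tallest under low stretch, at 44.0 to 60.5 TPM.

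The distal-start transcript Il1rl1-205 stayed a small part of the gene. It was listed at 0 in 5 of the 6 unstretched samples. Unstretched replicate 2 of experiment 1 was the exception, at 0.595 TPM. The transcript was above 0 in all 6 low-stretch samples, at 0.552 to 1.65 TPM. Under high stretch it was at 2.26 and 0.833 TPM in replicates 1 and 3 and listed at 0 in replicate 2. The proximal-start soluble transcript Il1rl1-203 was far more abundant in every group, with means of 33.1 TPM under low and 21.0 TPM under high stretch. GATA factors are known for driving the distal Il1rl1 start in mast cells. Gata2 had means of 8.09 CPM unstretched and 7.84 CPM under low stretch, and 13.3 and 12.7 CPM in experiment 2. Gata3 had means of 9.45 and 9.10 CPM in experiment 1 and 7.96 and 10.4 CPM in experiment 2. Neither gene passed the test under low stretch (edgeR adjusted p = 0.836 and 0.899) or high stretch (edgeR adjusted p = 0.964 and 0.412). Gata3 was still higher in every high-stretch sample (9.78 to 11.5 CPM) than in the unstretched samples of experiment 2 (7.52 to 8.53 CPM). The part of Gata2 and Gata3 in the Il1rl1 values was not tested.

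**Figure D3:**
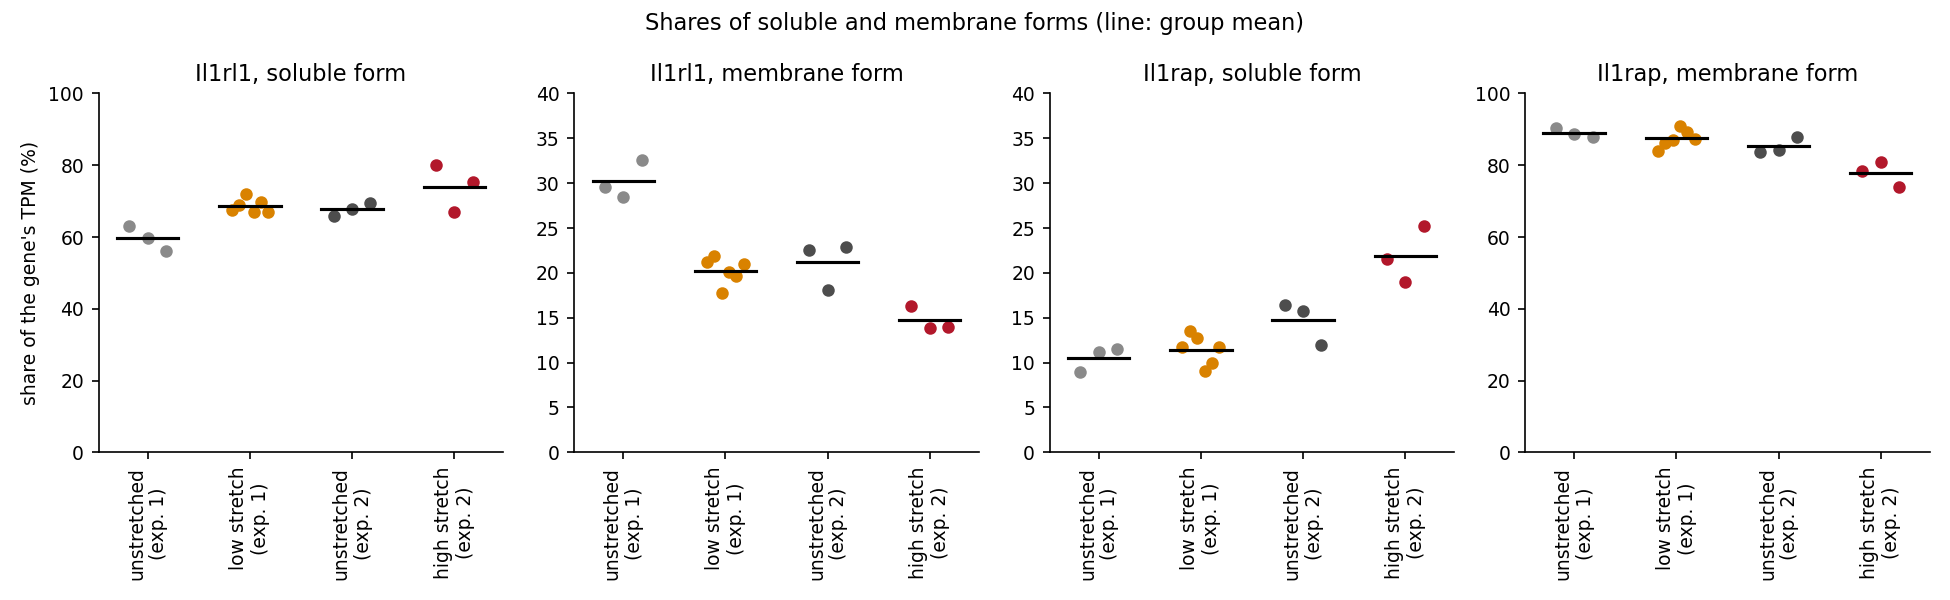
Share of each gene's TPM in soluble-form and membrane-form transcripts, in percent; points are samples, lines are group means, and the axes of the middle panels end at 40%. The Il1rl1 membrane share was lower in every stretched sample than in the unstretched samples of its experiment (17.8% to 21.9% against 28.5% to 32.6%, and 13.9% to 16.3% against 18.1% to 22.9%).

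Il33, the ligand of ST2, was present at a low level, and its values in experiment 1 moved with the plate run. In experiment 1 the unstretched samples held 0.407, 0.761 and 0.198 CPM, and the low-stretch samples ranged from 0.233 to 1.13 CPM with a median of 0.694 CPM. The groups overlapped, and both were highest in the second run and lowest in the third. The means were 0.701 ± 0.388 (SD, n = 6) and 0.455 ± 0.285 CPM (SD, n = 3), a fold of 1.54, with a fitted log2 difference of 0.61 (SE 0.55). Without unstretched replicate 3 that difference was 0.24, and without unstretched replicate 2 it was 1.22. Within its run, Il33 was higher in 6 of 6 low-stretch samples, by 1.18-fold to 2.08-fold, set against 3 shared unstretched samples. In experiment 2 it was at 0.116, 0.200 and 0.295 CPM unstretched and at 0.724, 0.340 and 0.617 CPM under high stretch, without overlap. The raw counts behind these values were small, from 18 to 179 reads. The fold of means was 2.75, the within-run folds were 6.25, 1.70 and 2.09, and the fitted log2 difference was 1.46 (SE 0.44), or 1.91 without unstretched replicate 3. Il33-201 held between 86.7% and 100% of the Il33 TPM as group means, and the gene total was 0.117 to 0.517 TPM.

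Il1rap, the accessory chain that ST2 and the IL-1 receptor share, was not higher with stretch. It was at 6.32, 7.08 and 5.74 CPM unstretched and at 3.92 to 7.14 CPM (median 5.62) under low stretch, with overlapping groups. The lowest samples were low-stretch replicates 5 and 6 of the third run, at 4.46 and 3.92 CPM. The fitted log2 difference was -0.22 (SE 0.18). In experiment 2 it was at 1.44, 1.54 and 2.77 CPM unstretched and at 1.48, 0.943 and 1.44 CPM under high stretch. The highest of these was unstretched replicate 3, and the log2 difference was -0.56 (SE 0.34) with it and -0.15 (SE 0.28) without it.

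A soluble form of the accessory protein also exists, Il1rap-206, with a frame of 360 codons against 570 in the main membrane transcript Il1rap-201. Its share of Il1rap TPM was 10.6% ± 1.41 (SD, n = 3) unstretched and 11.5% ± 1.67 (SD, n = 6) under low stretch, with overlap. In experiment 2 it was 16.4%, 15.7% and 12.0% unstretched and 21.5%, 19.0% and 25.2% under high stretch, without overlap. The soluble TPM itself had nearly equal means there (0.0972 ± 0.0437 and 0.0997 ± 0.0401 TPM), while the membrane form was at 0.610 ± 0.404 unstretched and 0.345 ± 0.108 TPM under high stretch. At such low abundance the share depended on a small constant: with 0.1 TPM added to each transcript, the difference of 7.20 percentage points became 3.05.

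Il1r1, the signalling receptor of IL-1, was at 12.2, 10.5 and 10.4 CPM unstretched and at 7.75 to 12.0 CPM (median 9.88) under low stretch. The groups overlapped, and the log2 difference was -0.14 (SE 0.13). In experiment 2 it was at 4.28, 4.54 and 8.97 CPM unstretched and at 6.19, 4.04 and 6.48 CPM under high stretch. Unstretched replicate 3 was again the highest sample, and the log2 difference turned from -0.08 (SE 0.35) to 0.39 (SE 0.26) without it. Il1r1-202 held between 88.0% and 88.9% of the TPM in every group mean.

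Il18 was at 4.69, 5.31 and 3.26 CPM unstretched and at 3.21 to 5.94 CPM (median 4.62) under low stretch, with overlapping groups and a log2 difference of 0.08 (SE 0.21). In experiment 2 it was at 1.98, 2.19 and 4.65 CPM unstretched and at 3.65, 2.98 and 4.29 CPM under high stretch. The high-stretch samples lay between unstretched replicates 2 and 3. The log2 difference was 0.31 (SE 0.37) with unstretched replicate 3 and 0.86 (SE 0.25) without it. In these bulk samples, fewer cells of a type and less RNA per cell cannot be told apart.

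**Figure D4:**
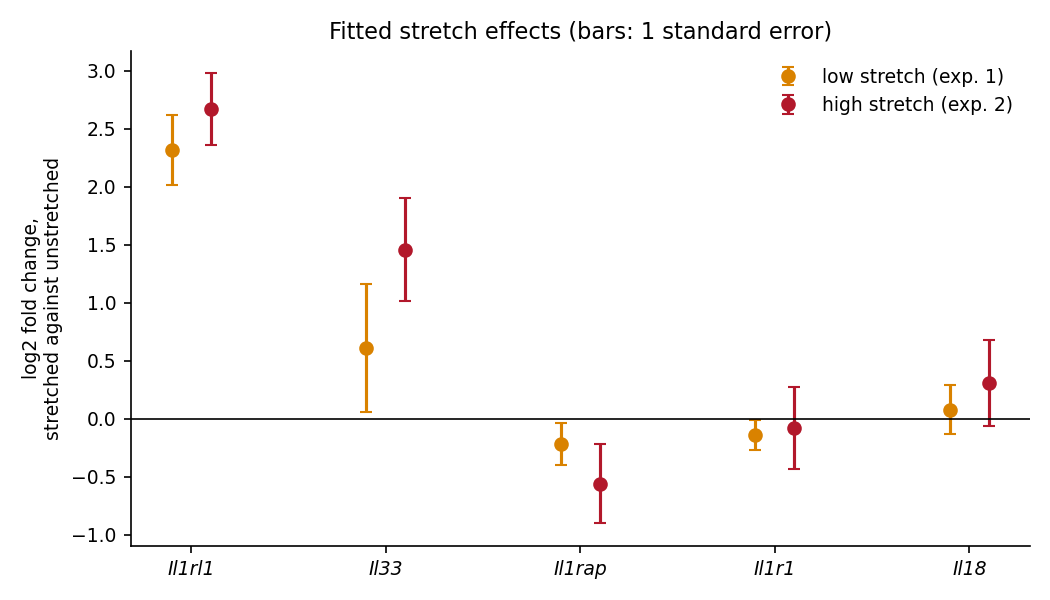
Fitted log2 fold change of each gene in each stretched group against the unstretched samples of its experiment; bars are 1 standard error of the fit. Il1rl1 stood at 2.32 and 2.67, whereas Il1rap, Il1r1 and Il18 lay between -0.56 and 0.31.

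By length-scaled abundance Il1rl1 stood above Il18 in the stretched groups and overlapped with it in the unstretched groups. In the unstretched samples of experiment 1, Il18 (11.4 ± 2.99 TPM) and Il1rl1 (9.81 ± 4.85 TPM) came first and overlapped, followed by Il1r1 (4.83 ± 0.630), Il1rap (3.27 ± 0.320) and Il33 (0.356 ± 0.224; SD, n = 3). Under low stretch Il1rl1 led at 49.5 TPM, and its lowest sample (44.0 TPM) was above the highest Il18 sample (13.8 TPM). Under high stretch Il1rl1 (22.2 to 34.9 TPM) was likewise above Il18 (4.41 to 7.62 TPM). Unstretched samples of experiment 2 held 3.27 to 11.4 TPM of Il18 and 2.62 to 6.37 TPM of Il1rl1, which overlapped.

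The unstretched samples were also compared between the experiments, which the choice of genes did not use. Il1rap was lower in experiment 2, at 1.92 ± 0.742 against 6.38 ± 0.677 CPM (SD, n = 3 each), a log2 fold change of -1.75 (SE 0.29, edgeR adjusted p = 0.00533). Leaving out each sample in turn kept this call in 6 of 6 fits. Il1r1 was lower as well, at 5.93 ± 2.64 against 11.0 ± 0.994 CPM (log2 fold change -0.91, SE 0.30, edgeR adjusted p = 0.0283). That call held in 1 of 6 such fits, the one without unstretched replicate 3 of experiment 2. Leaving out any of the other 5 samples gave edgeR adjusted p-values from 0.0603 to 0.113.

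Il1rl1 (log2 fold change -0.64, SE 0.39), Il33 (-1.16, SE 0.53) and Il18 (-0.60, SE 0.36) did not pass, with edgeR adjusted p-values of 0.179, 0.0874 and 0.176. Without unstretched replicate 3, Il33 (-1.61, edgeR adjusted p = 0.0434) and Il18 (-1.15, edgeR adjusted p = 0.00402) passed. Il33 also passed without unstretched replicate 3 of experiment 1 (-1.52, edgeR adjusted p = 0.0361). Of all 20707 genes tested in this comparison 62.5% passed, so 2 of 5 is no result about these genes. The p-values measure the spread between these samples, and the labels do not say that the samples were separate cultures. Amplitude, experiment and anything else that differed between the experiments cannot be told apart.

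The high-stretch effect was compared with the low-stretch effect in a fit of all 15 samples. The difference on the log2 scale was 0.32 (SE 0.41) for Il1rl1, 0.82 (SE 0.77) for Il33, -0.36 (SE 0.36) for Il1rap, 0.04 (SE 0.34) for Il1r1 and 0.22 (SE 0.40) for Il18, each with an edgeR adjusted p of 1.0. Without unstretched replicate 3 of experiment 2 the difference was 1.31 for Il33, 0.55 for Il1r1 and 0.79 for Il18, and without unstretched replicate 2 of experiment 1 it was 0.23 for Il33. None of the 22015 genes tested passed with edgeR (0%) or DESeq2, and 547 had an unadjusted p under 0.05. The standard errors leave room for differences of the size of those fitted, so the effects are not shown to be alike.

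Among the other ligands of the family, 0 passed a stretch comparison with edgeR or DESeq2, and 0 had an unadjusted p under 0.05. Only Il1a and Il1rn reached the filter under low stretch, and only Il1rn under high stretch, of 8 listed. Il1rn, the IL-1 receptor antagonist, had log2 fold changes of 0.89 (SE 0.43, edgeR adjusted p = 0.244) and 1.20 (SE 0.64, edgeR adjusted p = 0.482), at group means of 0.0887 to 0.214 CPM. Il1b, the main secreted IL-1 ligand, had group means of at most 0.00405 CPM.

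Of the 8 other receptors and decoys, 4 were tested under low stretch, where 0 passed with edgeR or DESeq2 and 3 had an unadjusted p under 0.05, and 2 were tested under high stretch. Il18rap, the accessory chain of the IL-18 receptor, rose under high stretch and lies 2 genes beyond Il1rl1 in the gene order of chromosome 1. It was at 0.0966, 0.318 and 0.422 CPM unstretched and at 2.06, 1.70 and 2.26 CPM under high stretch. The groups did not overlap, and the log2 fold change was 2.83 (SE 0.48, edgeR adjusted p = 0.0227). The call was lost without high-stretch replicate 1 (edgeR adjusted p = 0.0992) or replicate 3 (edgeR adjusted p = 0.110), and with total count scaling (edgeR adjusted p = 0.0517). Without unstretched replicate 3 the log2 fold change was 3.35. Under low stretch Il18rap ranged from 0.561 to 4.22 CPM (median 2.41) against 0.655, 0.876 and 0.0893 CPM unstretched. These groups overlapped (log2 fold change 2.04, SE 0.78, edgeR adjusted p = 0.143), with the lowest stretched samples again in the third run.

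The gene between them, Il18r1, the binding chain of the same receptor, was at 0.0113 CPM unstretched and 0.0375 CPM under low stretch as means (log2 fold change 1.69, SE 0.51, edgeR adjusted p = 0.0805). It did not reach the filter under high stretch. Il1rl2 and Il1r2, which lie on the other side of Il1rl1 with Il1r1, had group means of at most 0.00295 and 0.0128 CPM. Il18bp, a secreted decoy for IL-18, was at 2.97 and 2.22 CPM in experiment 1 and at 1.84 and 1.19 CPM under high stretch. Its log2 fold changes of -0.42 (SE 0.19) and -0.62 (SE 0.27) did not pass (edgeR adjusted p = 0.201 and 0.344).

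The 18 listed genes that carry the signal inside the cell, among them Myd88, Irak1, Irak4, Traf6 and Map3k7, were all tested, and 0 of 18 passed in either stretch comparison with edgeR. Under low stretch 1 had an unadjusted p under 0.05 and 0 passed with DESeq2, and under high stretch 3 had such a p and 1 passed with DESeq2. Their median log2 fold change was 0.02 under low and 0.00 under high stretch, beside medians over all genes of 0.01 and -0.02. With edgeR, 5.45% of all genes tested passed under low and 3.47% under high stretch, so 0 of 18 is no result about these genes. The counts of the other lists stand beside the same shares. Of the 11 NF-kB proteins and inhibitors, 1 rose under low stretch, and 1 rose and 1 fell under high stretch. DESeq2 called 2 higher and 1 lower under low stretch, and 1 in each direction under high stretch. Tnfaip3, which encodes A20, an NF-kB target and feedback inhibitor, rose in both. It was at 16.5, 22.8 and 10.8 CPM unstretched and at 23.3 to 61.5 CPM (median 46.2) under low stretch, with a log2 fold change of 1.37 (SE 0.35, edgeR adjusted p = 0.0473). The groups did not overlap, but the call held in 2 of 9 fits that left out 1 sample. It was lost without any 1 of the 3 unstretched samples or of low-stretch replicates 1 to 4 (edgeR adjusted p = 0.0501 to 0.207), and without the second plate run (edgeR adjusted p = 0.120).

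Under high stretch Tnfaip3 was at 86.5, 58.6 and 62.9 CPM against 14.1, 19.7 and 15.7 CPM unstretched, a log2 fold change of 2.09 (SE 0.24, edgeR adjusted p = 0.00641). The groups were far apart, and the adjusted p was 0.0544 by edgeR without high-stretch replicate 3. Bcl3, an atypical inhibitor of the same family, fell under high stretch from 1.06 ± 0.0412 to 0.352 ± 0.146 CPM (SD, n = 3 each; log2 fold change -1.59, SE 0.33, edgeR adjusted p = 0.0424). That call held in 2 of 6 fits that left out 1 sample, those without high-stretch replicate 2 or unstretched replicate 3.

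Of 15 genes of cytokine processing and the inflammasome, 11 were tested under low stretch, of which 1 rose and 1 fell (2 and 1 with DESeq2). Capn1, a calpain subunit, was higher by 0.48 on the log2 scale (SE 0.12, edgeR adjusted p = 0.0494), a call kept in 2 of 9 fits that left out 1 sample. It was also lost in 1 fit of all 15 samples, with a replicate block, with total count scaling and without the second plate run (edgeR adjusted p = 0.287, 0.0810, 0.0612 and 0.194). Casp4, the murine caspase-11, was lower by a log2 fold change of -1.94 (SE 0.34, edgeR adjusted p = 0.0109), at 0.0737 ± 0.0260 CPM (SD, n = 6) against 0.287 ± 0.121 CPM (SD, n = 3). It lost the call without unstretched replicate 3 (edgeR adjusted p = 0.0750) and with a replicate block (edgeR adjusted p = 0.0895). Under high stretch 8 of these genes were tested and 0 passed with edgeR, while 2 had an unadjusted p under 0.05 and 1 passed with DESeq2.

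Of 26 genes known to respond to IL-1 or IL-33, 14 were tested under low stretch, of which 0 rose and 2 fell. Under high stretch 12 were tested, of which 1 rose and 2 fell. DESeq2 called 0 higher and 2 lower under low stretch, and 2 in each direction under high stretch. C3, the central complement component, fell under both. Under low stretch it was at 0.663 ± 0.348 CPM (SD, n = 6), against 5.10 ± 1.81 CPM unstretched (SD, n = 3), a log2 fold change of -2.95 (SE 0.37, edgeR adjusted p = 0.00400). Without the second plate run the edgeR adjusted p was 0.0539. Under high stretch it was at 0.415 ± 0.220 against 16.9 ± 10.8 CPM (SD, n = 3 each; log2 fold change -5.36, SE 0.67, edgeR adjusted p = 0.00824, or 0.0628 without high-stretch replicate 3). Without unstretched replicate 3 its log2 fold change was -4.70.

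Areg, which encodes the growth factor amphiregulin, rose under high stretch from 0.0331 ± 0.00633 to 0.305 ± 0.0410 CPM (SD, n = 3 each; log2 fold change 3.19, SE 0.37, edgeR adjusted p = 0.00641). Without high-stretch replicate 3 its edgeR adjusted p was 0.0601. Ccl20, a chemokine, fell under low stretch (log2 fold change -2.73, SE 0.56, edgeR adjusted p = 0.0222) at group means of 0.0122 and 0.0808 CPM. It lost the call without low-stretch replicate 2, unstretched replicate 2 or unstretched replicate 3 (edgeR adjusted p = 0.0508 to 0.0936), and without the second plate run (edgeR adjusted p = 0.0685). Steap4, a metalloreductase, fell under high stretch with values of 0 to 0.00405 CPM against 0.0619 to 0.0902 CPM (edgeR adjusted p = 0.0157). That call held in 1 of the 5 fits that left out 1 sample and still tested the gene, the one without unstretched replicate 2, and was lost in 1 fit of all 15 samples (edgeR adjusted p = 0.0979).

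Over all 92 listed genes other than the 5, 65 were tested under low stretch, of which 2 rose and 3 fell, where 1.85% and 3.60% of all genes tested rose and fell. Under high stretch 57 were tested, of which 3 rose and 3 fell, where the shares over all genes were 1.31% and 2.16%. The median log2 fold changes of the listed genes were -0.03 and -0.04. Without high-stretch replicate 3 the number of listed genes that passed under high stretch was 0, where 14 of all genes passed. Without unstretched replicate 3 of experiment 2 the count of listed genes was 10, where 1421 of all genes passed. Without unstretched replicate 3 of experiment 1 the low-stretch count was 1. With a plate run block it was 21, where the count over all genes went from 1181 to 6106, and with DESeq2 it was 8.

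**Figure D5:**
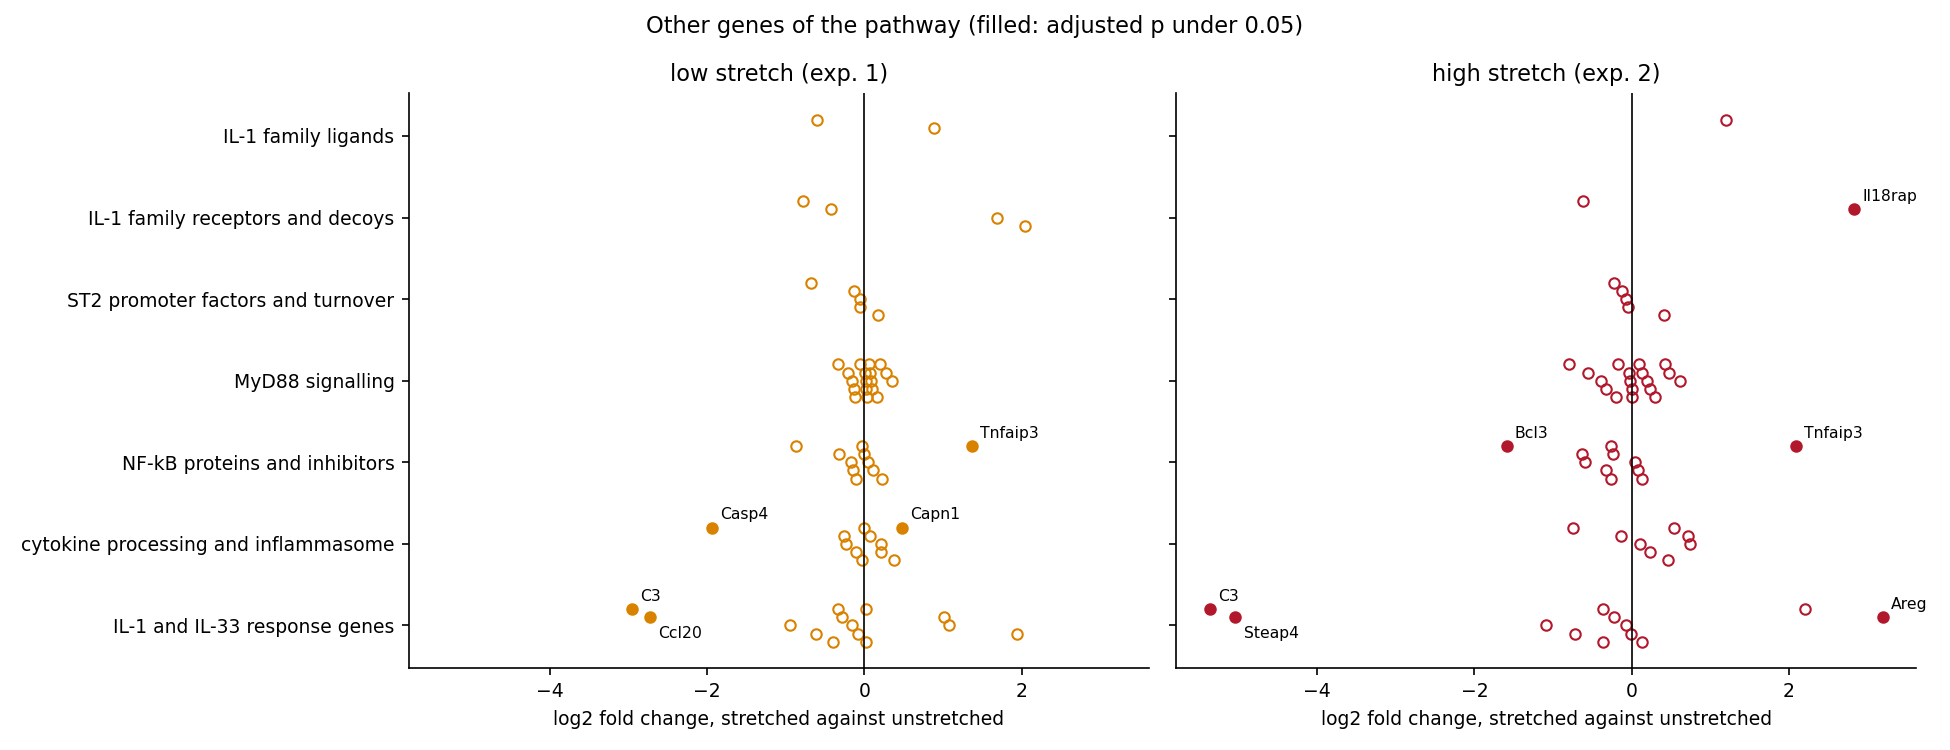
Fitted log2 fold change of each tested pathway gene other than the 5, by list, under low stretch (left) and high stretch (right); filled points passed at an adjusted p under 0.05 and are named. Tnfaip3 was to the right and C3 to the left in both panels, and all points of the MyD88 list were open.

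ST2 is best known from mast cells, basophils and type 2 lymphoid cells, so their markers were listed beside it. Of 12 mast cell and basophil markers, 10 or 11 had a group mean under 0.1 CPM in each group. Kit, Cpa3 and Fcer1a, among these low markers, had group means of at most 0.00270, 0.00106 and 0.000379 CPM. The 2 exceptions moved in opposite directions. Ms4a2 fell under high stretch from 126 ± 64.1 to 18.7 ± 4.96 CPM (SD, n = 3 each; log2 fold change -2.73, SE 0.43, edgeR adjusted p = 0.0171). Mcpt8, a basophil protease gene, rose there from 0.196 ± 0.226 to 2.85 ± 0.942 CPM (log2 fold change 3.98, SE 0.84, edgeR adjusted p = 0.0457). Neither passed under low stretch. The log2 fold changes there were -0.95 for Ms4a2 (SE 0.44, edgeR adjusted p = 0.223) and 2.69 for Mcpt8 (SE 1.07, edgeR adjusted p = 0.160). The summed level of the list ran from 339 to 892 CPM unstretched and from 126 to 482 CPM under low stretch, and from 59.9 to 187 CPM and from 16.4 to 28.0 CPM in experiment 2, nearly all of it Ms4a2.

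Of 8 markers of T cells and type 2 innate lymphoid cells, only Rora and Gata3 reached 1 CPM, and the other 6 had means under 0.1 CPM in every group. The summed level of that list was 33.7 to 49.2 CPM unstretched and 25.7 to 39.1 CPM under low stretch, and 11.5 to 21.4 and 13.1 to 15.2 CPM in experiment 2. All 6 endothelial markers had means under 0.1 CPM, with sums of at most 0.384 CPM in any sample. Of 7 macrophage markers only Csf1r and Cd68 reached 1 CPM. Their list summed to 23.5 to 26.2 CPM unstretched and 6.76 to 13.2 CPM under low stretch, and to 23.9 to 26.3 and 5.95 to 9.93 CPM in experiment 2. Csf1r fell in both (log2 fold changes -1.51 and -2.02, SE 0.23 and 0.25, edgeR adjusted p = 0.00739 and 0.00808). Cd68 did not pass, at a log2 fold change of -0.12 (SE 0.13, edgeR adjusted p = 0.617) under low and 0.86 (SE 0.27, edgeR adjusted p = 0.165) under high stretch, where its stretched samples (1.59 to 2.16 CPM) were all above the unstretched ones (0.754 to 1.26 CPM). DESeq2 called 1 macrophage marker higher there. The part of these markers in the Il1rl1 values was not tested.

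The mesangial cell and fibroblast markers, of which Acta2 and Pdgfrb reached 1 CPM, summed to 1262 to 1999 CPM unstretched and 1511 to 3941 CPM under low stretch. In experiment 2 they summed to 2552 to 7227 and 6534 to 10490 CPM. Nearly all of that sum was Acta2, which did not pass (log2 fold changes 0.86 and 0.98, SE 0.32 and 0.38, edgeR adjusted p = 0.136 and 0.269). Pdgfrb fell under low stretch (log2 fold change -0.56, SE 0.11, edgeR adjusted p = 0.0199) and was at -0.42 (SE 0.18, edgeR adjusted p = 0.357) under high stretch. Of the tubule markers only Lrp2 reached 1 CPM, and that list summed to 926 to 1089 and 474 to 757 CPM in experiment 1 and to 317 to 668 and 249 to 425 CPM in experiment 2. Lrp2 and Cdh1 fell under low stretch (log2 fold changes -0.65 and -1.18, SE 0.14 and 0.28, edgeR adjusted p = 0.0227 and 0.0391), and neither passed under high stretch (-0.39 and -1.73, edgeR adjusted p = 0.733 and 0.0934). Their part in the values was likewise not tested.

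The genes whose pattern was most like that of Il1rl1 were sought among 12935 genes with a mean of at least 1 CPM, by Pearson correlation of log2 CPM over 15 samples after subtraction of each experiment's mean. Fyn, a Src family kinase that phosphorylates nephrin in podocytes, came first at 0.99, followed by Fam171a1 (0.98), Wincr1, Serpinb9b and Cmah (0.97 each). Fyn was at 54.6 ± 8.91 CPM unstretched (SD, n = 3) and 89.6 ± 8.21 CPM under low stretch (SD, n = 6), and at 56.0 ± 5.88 and 104 ± 8.98 CPM in experiment 2 (SD, n = 3 each). Cmah, a sialic acid hydroxylase, was lower than Fyn at 1.27 and 6.44 CPM in experiment 1 and 0.446 and 3.33 CPM in experiment 2. Serpinb9b is uncertain, since it has close copies that can share reads. The samples share their libraries and the stretch itself, so these values only describe likeness. By the same measure Il18 stood at 0.47, Il1r1 at -0.04 and Il1rap at -0.34, and Il33 was below the level limit.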

How the data were processed

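Gene counts (whole-number raw counts for 55416 genes) and transcript TPM (140789 transcripts) were deposited by the authors. Per the submitters' processing notes, STAR 2.7.5c, featureCounts, Subread 2.0.0, DESeq2 1.38.3, Salmon 1.9.0 and build mm39 were used. The annotation and the strand setting of the counting are not given in the sources used here. Per the labels' protocols, libraries were stranded and poly(A)-selected, and whether a read pair counted once is not given. TPM carry no depth. At 172.2 to 396.7 M (megacounts) per sample, counting error is largest for Il33, at 18 to 343 counts.

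Symbols (52083 genes) and transcript structures (137189 transcripts) came from GENCODE M21 on GRCm38, so the printed coordinates are of that build and not of the authors' alignment. Unmatched genes held at most 0.231% of a sample's counts. Promoters are RefSeq sequences.

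The test for counts was the quasi-likelihood F test of edgeR 4.0.16 (R 4.3.3) after TMM, filterByExpr and estimateDisp, with Benjamini-Hochberg adjustment over all genes tested and a threshold of 0.05. Each stretched group was fitted with its own unstretched samples, the unstretched groups with each other, and the difference of effects over all 15 samples. Standard errors were log2 fold changes over the root of F. CPM used TMM over all 15 samples. Scripts were tested on simulated data.

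The rule first set defined a membrane form as a frame that reaches the last coding exon of the longest frame, and a soluble form as one that ends earlier. It did not separate the forms of Il1rap, whose longest frame ends elsewhere. Complete frames of over 500 codons were therefore counted as membrane, and shorter ones as soluble, for Il1rl1 and Il1rap alike. That rule was chosen after seeing the transcripts. For Il1rl1 the frames were of 567 codons in membrane and 337 in soluble transcripts. Named genes were the 5, listed family members with a mean of at least 1 CPM, listed genes that passed a stretch comparison, and the 5 most correlated with Il1rl1. Il1a, Il1b, Il1rn, Il18r1, Il1r2, Il1rl2, Gata2, Gata3 and the named cell type markers fall outside that rule and were chosen after their values were seen. The genes and lists were chosen with earlier results of these data known.

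Alternatives were RLE factors, DESeq2 1.42.0, no filter, a mean count of at least 100, one fit of all 15 samples, a replicate block, a plate run block, each sample left out in turn and, for the forms, a coding-only denominator, a pseudocount of 0.1 TPM, a minimum of 0.1 TPM and ratios of mean TPM. Total count scaling and omission of plate run 2 were added after seeing the data. One listed marker gene is not reported here.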

Additional observations from a re-analysis of the deposited data

Results flagged for a closer look

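In 33 groups of values tested for a sample far from the others, 2 were found, where chance gives about 1 in 20. Both concern low-stretch samples of genes near the detection limit. Ccl20 was at 0.0323 CPM (9 reads) in low-stretch replicate 4 and at 0.00313 to 0.0131 CPM in the other 5 samples, so its gap to the nearest sample was 0.656 of the group's range, above the critical value of 0.625. Steap4 was at 0.0313 CPM (10 reads) in low-stretch replicate 6 and at 0 to 0.00348 CPM in the other 5 samples, a gap of 0.889 of the range.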

How the results depend on the processing

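Il1rl1 kept its direction in all alternatives, with log2 differences of 2.25 to 2.52 under low stretch and 2.59 to 2.71 under high stretch. With 1 sample left out they were 2.00 to 2.71 and 2.41 to 2.87. The labels do not say that the replicate numbers pair the samples, and correlations of same-numbered deviations ran from -0.44 to 0.45. In experiment 1 the numbers cross the plate runs, so these correlations cannot settle whether samples of a run were paired. In experiment 2 the numbers match the runs, so the replicate and plate run blocks were the same fit under high stretch. A replicate block gave Il1rl1 differences of 2.43 and 2.71. The replicate block moved the count of all genes that passed from 1181 to 490 under low and from 643 to 1546 under high stretch. Other counts were 2837 and 1403 with DESeq2, 640 and 1488 in one fit of all 15 samples, and 6106 and 1546 with a plate run block. They were 190 under low stretch without plate run 2, and 1050 and 414 under high stretch without a filter and with a mean count of at least 100. Leaving out 1 sample gave 220 to 1630 and 14 to 1421, the 14 being without high-stretch replicate 3. For the difference of effects a plate run block gave 3 genes. Listed genes that passed under low stretch, 5 in the report, numbered 8 with DESeq2, 3 with a mean count of at least 100, 21 with a plate run block, 1 without plate run 2 and 1 to 6 with 1 sample left out. Under high stretch, 6 became 10 in 1 fit of all 15 samples. A replicate block, the same fit there as a plate run block, also gave 10. With 1 sample left out the number was 0 to 10. Between the unstretched groups, Il1r1 was at -0.94 (edgeR adjusted p = 0.0634) without plate run 2, and leaving out 1 sample gave -1.38 to -0.71 for Il1r1, -1.61 to -0.57 for Il33 and -1.15 to -0.37 for Il18. The high-stretch difference of Il18 ranged from 0.09 to 0.86. The Il33 difference ranged from 0.24 to 1.22 under low and 1.18 to 1.91 under high stretch with 1 sample left out. The difference of effects ranged from -0.06 to 0.63 for Il1rl1, 0.23 to 1.31 for Il33, -0.54 to 0.08 for Il1rap, -0.15 to 0.55 for Il1r1 and -0.00 to 0.79 for Il18, and was -0.00 for Il1r1 with total count scaling. The Il1rap soluble share differed by 3.05 percentage points under high stretch with a pseudocount of 0.1 TPM. The cause was not tested. Total count scaling moved the median of all genes between the unstretched groups from -0.07 to -0.39 and made 259 genes rise and 1066 fall under low stretch, instead of 400 and 781.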
